A study of Homo sapiens with 3 samples.

Results

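CDX2, MITF, HMX3 and SIX4 are 4 genes for transcription factors that direct cell lineages in development. They were examined in the human liver cancer line PLC, whose RNA was sequenced after knockdown of HKDC1 (shHKDC1), knockdown of RBBP5 (shRBBP5) or with the NTC control. There was 1 library per group, all groups were grown in the same medium, and the labels give no time point, clone or further treatment. The study asked whether HKDC1 and RBBP5 regulate gene expression. RBBP5 is a core subunit of the complexes that methylate histone H3 at lysine 4, and HKDC1 belongs to the hexokinase family. The 4 genes were taken by symbol from 11642 named genes, and they had been selected on their levels and ratios in these same 3 libraries. Their values are therefore a description without a test, and each gene is the sum of its RefSeq transcript rows in the deposited table.

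Homeodomain proteins bind short AT-rich DNA sites and set position and tissue identity in the embryo. CDX2 is the homeodomain factor that specifies and maintains the intestinal epithelium. HMX3 acts in the developing inner ear and hypothalamus, largely on evidence from the mouse, and SIX4 works with EYA co-activators in muscle and sensory organ development. MITF is a basic helix-loop-helix leucine zipper factor of a different class, the master regulator of melanocytes, which also acts in osteoclasts and the pigmented epithelium of the eye. Its gene is transcribed from several starts, and the third of those printed here gives the M form, which is characteristic of melanocytes.

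The 250 bases before each annotated start are shown because RBBP5 acts in a complex whose histone mark is typically found at CpG-rich starts, and because MITF transcripts differ by start. They come from RefSeq on GRCh38.p14 (the counts were made on another build, hg19, and no count was placed by these coordinates). Each is written 5′ to 3′ on the strand of the gene, with every CG pair in capitals.
HMX3, chr10:123135720-123135969, plus strand: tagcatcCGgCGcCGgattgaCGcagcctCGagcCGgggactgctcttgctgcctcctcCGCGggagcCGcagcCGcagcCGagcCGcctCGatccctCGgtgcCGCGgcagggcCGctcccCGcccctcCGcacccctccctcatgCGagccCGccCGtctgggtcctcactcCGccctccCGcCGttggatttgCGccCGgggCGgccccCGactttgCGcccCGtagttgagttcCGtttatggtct
CDX2, chr13:27969316-27969565, minus strand: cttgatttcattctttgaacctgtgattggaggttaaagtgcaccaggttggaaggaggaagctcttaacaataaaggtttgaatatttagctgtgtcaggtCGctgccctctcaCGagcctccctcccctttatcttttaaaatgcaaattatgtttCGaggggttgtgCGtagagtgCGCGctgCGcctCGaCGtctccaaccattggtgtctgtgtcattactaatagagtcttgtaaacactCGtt
SIX4, chr14:60724352-60724601, minus strand: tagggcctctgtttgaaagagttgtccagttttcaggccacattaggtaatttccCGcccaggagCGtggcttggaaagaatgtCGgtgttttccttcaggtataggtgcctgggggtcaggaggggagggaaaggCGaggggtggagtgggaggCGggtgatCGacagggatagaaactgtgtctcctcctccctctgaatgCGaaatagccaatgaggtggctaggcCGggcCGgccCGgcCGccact
MITF, the first start, chr3:69739214-69739463, plus strand: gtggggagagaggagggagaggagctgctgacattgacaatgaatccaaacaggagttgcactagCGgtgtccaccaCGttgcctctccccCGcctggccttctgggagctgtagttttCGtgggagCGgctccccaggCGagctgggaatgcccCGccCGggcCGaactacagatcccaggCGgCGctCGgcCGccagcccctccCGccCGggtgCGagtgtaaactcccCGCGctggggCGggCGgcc
MITF, the second start, chr3:69763561-69763810, plus strand: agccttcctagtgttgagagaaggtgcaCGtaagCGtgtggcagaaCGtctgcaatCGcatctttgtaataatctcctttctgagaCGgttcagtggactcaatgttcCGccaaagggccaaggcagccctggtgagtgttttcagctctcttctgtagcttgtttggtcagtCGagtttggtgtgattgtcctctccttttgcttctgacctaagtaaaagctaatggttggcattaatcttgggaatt
MITF, the third start, chr3:69936342-69936591, plus strand: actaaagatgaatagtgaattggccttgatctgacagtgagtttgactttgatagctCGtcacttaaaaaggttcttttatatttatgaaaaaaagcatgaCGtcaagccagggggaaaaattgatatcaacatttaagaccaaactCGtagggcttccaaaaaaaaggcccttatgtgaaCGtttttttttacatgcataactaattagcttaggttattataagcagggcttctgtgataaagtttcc

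The HMX3 window held 32 CG pairs, which was more than in 90.5% of 35116 such windows, where the median was 11. The first MITF start had 20, SIX4 had 11 and CDX2 had 10. The CDX2 window is placed by RefSeq, while GENCODE v29 starts the transcript of its row NM_001265.6 at 1824 bases from there. The second MITF start had 7 and the third had 4. The members thus spanned CpG-rich and CpG-poor windows. The cAMP response element TGACGTCA, present in 1.65% of windows, lay at base 99 of the third MITF window. The CDX-type core TTTATG (9.64% of windows) began at base 83 of that window and at base 241 of the HMX3 window. The homeodomain core TAATTA (4.35%) began at base 204 of the third MITF window, and TATAAA (10.7%) lay there on the opposite strand at base 77. The E-box CACGTG, a site bound by MITF-family proteins and present in 6.34% of windows, was in none of the 6. Both strands were searched, and the hits did not overlap each other.

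Totals were 115556160 estimated counts (units) in shHKDC1, 154533913 in shRBBP5 and 161750310 in NTC. Of the 43704 rows, 16301 were anonymous assembled loci that held over 99% of the units in each library. Of the 11642 named genes, 1015 were measured, meaning a mean of at least 1 CPM (units scaled to library size with TMM) over the 3 libraries. CDX2, HMX3 and MITF lay low among these, at ranks 800, 826 and 956 of 1015 by mean CPM. SIX4, at rank 388 with a mean of 3.39 CPM, was above the median of 2.60 CPM. All 4 were measured, but HMX3 passed through the shHKDC1 library, because its mean over the other libraries was 0.189 CPM. CDX2 and MITF would also have fallen short without shHKDC1, at 0.979 and 0.970 CPM, and MITF likewise without NTC, at 0.969 CPM. Intervals in brackets are exact 95% intervals for counting error alone, taking 4 units as 1 sequenced fragment. Reads may also lie in anonymous loci, which was not tested. HKDC1 and RBBP5 lack own rows, so knockdown of the targets is not analysed here. Of 14 hepatocyte markers, FGB and F5 had rows, with a summed level of 1.59 CPM in shHKDC1, 5.40 CPM in shRBBP5 and 5.90 CPM in NTC. The check of the liver label thus rests on FGB and F5 alone, and whether their lower level in shHKDC1 bears on the other values was not tested. Fibroblast markers (5 of 6 with rows) summed to 1.58 CPM in shHKDC1, close to the hepatocyte sum, 1.79 CPM in shRBBP5 and 0.879 CPM in NTC. Most of that sum was PDGFRB alone, at 1.48 CPM in shHKDC1, 1.56 CPM in shRBBP5 and 0.605 CPM in NTC. COL3A1 had another order, at 0.0581 CPM in shHKDC1, 0.163 CPM in shRBBP5 and 0.240 CPM in NTC, and COL1A2 was at 0. The 4 endothelial markers summed to 0.765 CPM in shHKDC1, 0.163 CPM in shRBBP5 and 0.137 CPM in NTC. Of the shHKDC1 sum, 0.707 CPM was VWF alone, on about 18 fragments, while PECAM1, CDH5 and KDR had at most 1 fragment each there. In bulk RNA, fewer cells of a kind and less RNA per cell cannot be told apart.

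Calls required a log2 ratio of 1 or more in either direction and an interval without 0. For shHKDC1 over NTC, HMX3 was called higher, SIX4 was called lower, and CDX2 and MITF were not called. The background for these calls was 8.37% of named genes higher and 23.1% lower. For shRBBP5 over NTC, CDX2 and MITF were called lower, HMX3 and SIX4 were not called, and none of the 4 was called higher. There, 2.27% of named genes were called higher and 8.67% lower. In the direct comparison of shHKDC1 over shRBBP5, HMX3, CDX2 and MITF were called higher and SIX4 lower, against 11.4% and 17.4% of named genes. Total counts in place of TMM changed the split of named-gene calls to 59 higher and 346 lower for shHKDC1 over NTC (85 and 234 with TMM). For shHKDC1 over shRBBP5 it became 86 and 249 with total counts (116 and 177 with TMM). Without the filter of 1 CPM, 557 were higher and 472 lower for shHKDC1 over NTC, and 661 and 390 for shHKDC1 over shRBBP5. The background shares above thus depend on that filter.

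**Figure D1:**
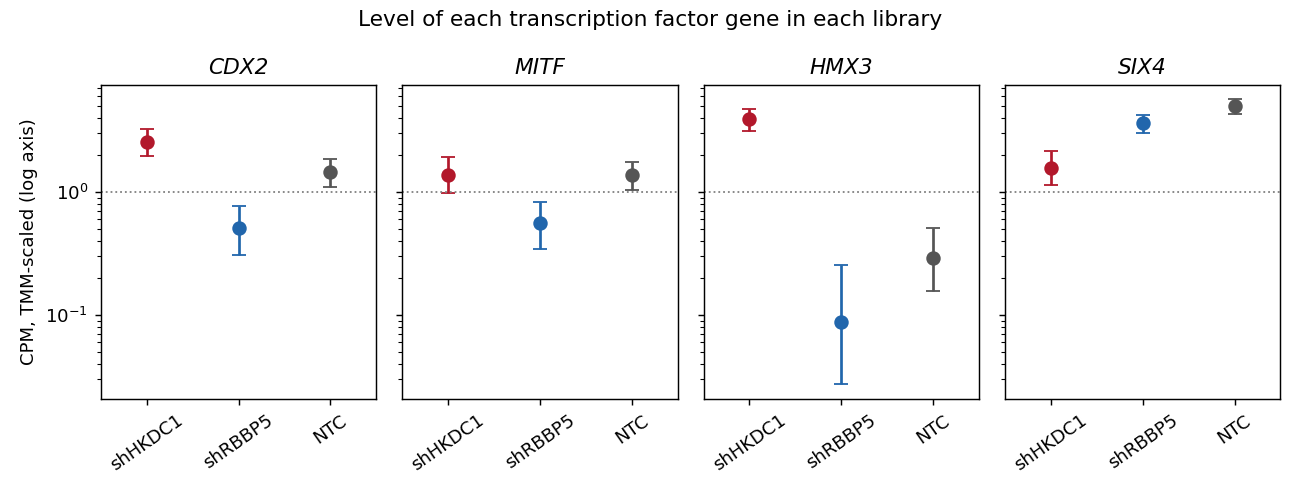
Level of CDX2, MITF, HMX3 and SIX4 in each library, in TMM-scaled CPM on a log axis. Points are single libraries, bars are exact 95% Poisson intervals for counting error, and the dotted line is 1 CPM. HMX3 is at 3.89 CPM in shHKDC1, 0.0878 CPM in shRBBP5 and 0.291 CPM in NTC, while SIX4 is at its lowest, 1.58 CPM, in shHKDC1.

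HMX3 had the widest range of the 4 genes. It stood at 3.89 CPM in shHKDC1 (402 units, about 100 fragments), at 0.0878 CPM in shRBBP5 (14 units, about 4 fragments) and at 0.291 CPM in NTC (51 units, about 13 fragments). The shHKDC1 interval of 3.15 to 4.71 CPM lay far above that of NTC, 0.158 to 0.507 CPM, while those of shRBBP5 (0.0273 to 0.257 CPM) and NTC overlapped. The shHKDC1 level was 13.3-fold that of NTC (log2 3.73 [2.87 to 4.66]), the fourth highest ratio of 1015. That rank adds no support, because HMX3 entered the 1015 through the same shHKDC1 value (mean 0.189 CPM without shHKDC1). The shRBBP5 ratio to NTC was log2 −1.69 [−3.64 to 0.13], which was not called. Between the knockdowns, the HMX3 level in shHKDC1 was 42.9-fold that in shRBBP5 (log2 5.42 [3.87 to 7.17]), and the width of that interval follows from the 4 fragments in shRBBP5.

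CDX2 was highest in shHKDC1 and lowest in shRBBP5. It had 2.55 CPM in shHKDC1 (interval 1.98 to 3.25), 0.514 CPM in shRBBP5 (0.306 to 0.774) and 1.44 CPM in NTC (1.11 to 1.84). None of these 3 intervals overlapped another. Relative to NTC, its shRBBP5 level was 2.80-fold lower (log2 −1.48 [−2.32 to −0.77]), rank 26 from the bottom of 1015. The shHKDC1 ratio of log2 0.82 [0.31 to 1.35] excluded 0 but was under the 2-fold rule. The knockdowns differed 4.93-fold, with shHKDC1 above shRBBP5 (log2 2.30 [1.61 to 3.15]).

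SIX4 was the member with the lowest shHKDC1 ratio, and the best covered of the 4 in shRBBP5 and NTC. Its level was 1.58 CPM in shHKDC1 (163 units), 3.61 CPM in shRBBP5 (576 units) and 4.97 CPM in NTC (871 units). The counting intervals were 1.14 to 2.15 CPM in shHKDC1, 3.04 to 4.25 CPM in shRBBP5 and 4.34 to 5.68 CPM in NTC. The order shHKDC1, shRBBP5, NTC was thus separated beyond counting error at each step. SIX4 was 3.14-fold lower in shHKDC1 than in NTC (log2 −1.65 [−2.17 to −1.16]) and 2.28-fold lower than in shRBBP5 (log2 −1.19 [−1.72 to −0.68]). The shRBBP5 ratio to NTC was log2 −0.46 [−0.78 to −0.15], short of the call. SIX4 stood at rank 74 from the bottom of 1015 for shHKDC1 over NTC, where the median named gene was at −0.39.

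MITF was at nearly the same level in shHKDC1 and NTC. It had 1.37 CPM in shHKDC1 (142 units), 0.564 CPM in shRBBP5 (90 units) and 1.38 CPM in NTC (241 units). The shRBBP5 interval of 0.346 to 0.835 CPM lay below those of shHKDC1 (0.976 to 1.93 CPM) and NTC (1.05 to 1.76 CPM). MITF was 2.43-fold lower in shRBBP5 than in NTC (log2 −1.28 [−2.09 to −0.59]) and 2.43-fold higher in shHKDC1 than in shRBBP5 (log2 1.28 [0.53 to 2.17]). The shHKDC1 ratio to NTC was 0.00 [−0.61 to 0.64], so counting error allowed anything from 1.53-fold lower to 1.56-fold higher.

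**Figure D2:**
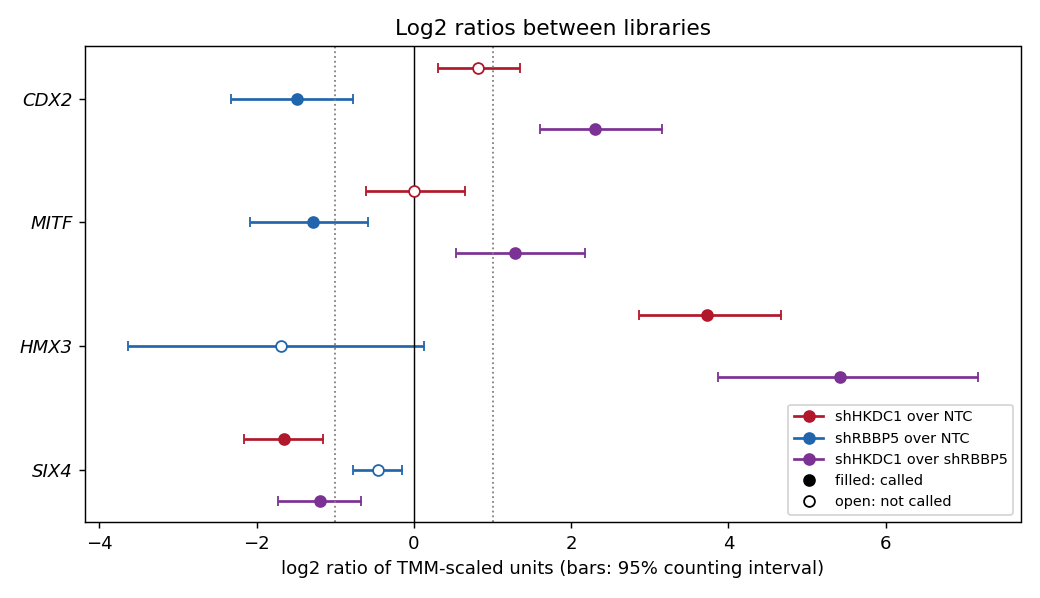
Log2 ratios of the 4 genes in the 3 comparisons, with exact 95% counting intervals as bars and dotted lines at the 2-fold rule. HMX3 over NTC stands at 3.73 in shHKDC1 and SIX4 at −1.65, while the shRBBP5 ratios of all 4 genes lie below 0, from −0.46 to −1.69.

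All 4 members had a ratio below 0 for shRBBP5 over NTC, as did 681 of the 1015 measured named genes (67.1%). HMX3, CDX2 and MITF were above 0 for shHKDC1 and below 0 for shRBBP5, a sign pattern of 196 named genes (19.3%), although MITF was above 0 by 0.00097 and stood at −0.28 with total counts. SIX4 was below 0 in both, like 485 named genes (47.8%). Both ratios share the NTC library. A gene called higher in shHKDC1 and lower in shRBBP5 was found 13 times among the 1015, and none of the 13 was a member.

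**Figure D3:**
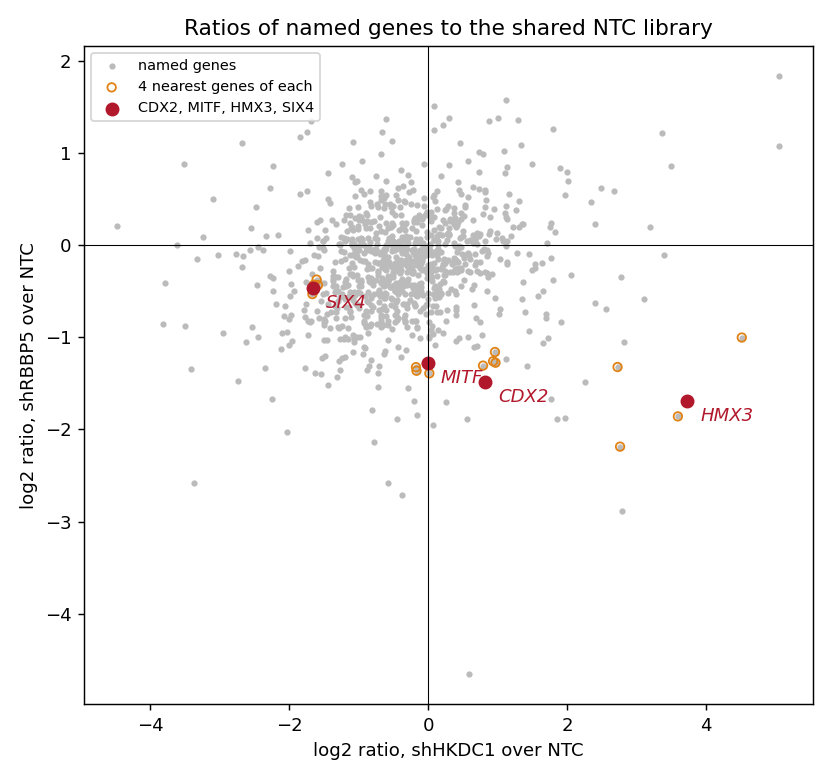
Log2 ratio to NTC in shHKDC1 (horizontal) and in shRBBP5 (vertical) for the 1015 measured named genes in grey, with the 4 members in red and the 4 nearest genes of each ringed. Both axes share the NTC library. HMX3 lies at 3.73 and −1.69 among few genes, while SIX4 lies at −1.65 and −0.46 in a denser region.

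The transcript rows behind MITF and CDX2 differed between libraries. MITF has 13 RefSeq rows, of which 3 were above 0. In shHKDC1, 128 of its 142 units were on NM_001354604.2 and 14 on NM_001354608.2. In shRBBP5, 80 of 90 units were on NM_001354608.2 and 10 on NM_001354604.2. In NTC all 241 units were on NM_001354607.2, which was at 0 in both knockdowns. No row was thus the leading row in more than 1 library.

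By GENCODE v29, NM_001354604 belongs to MITF-204, which starts 29 bases from the first start printed above, and the other 2 belong to MITF-203 at the second start. Rows of the first start held 90.1% [73.9 to 96.9] of the MITF units in shHKDC1 and 11.1% [1.12 to 29.2] in shRBBP5. In NTC they held 0 of about 60 fragments, which allows a share of up to 5%. The 4 rows that start within 131 bases of the third start, among them NM_000248.4 of the melanocyte M form, were at 0 in every library, as was NM_198177.3, which starts 70368 bases from it. A count of 0 there allows a share of up to 8.33% of MITF fragments in shHKDC1, 13.6% in shRBBP5 and 5% in NTC. Brackets beside shares are exact Clopper-Pearson intervals, and the limit for a share of 0 is 3 fragments over all MITF fragments of that library.

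CDX2 has 2 rows. NM_001265.6 held all 263 units in shHKDC1 and all 82 in shRBBP5, but 172 of 253 units in NTC, 68.0% [55.3 to 79.4]. The other 81 NTC units were on NM_001354700.2, which was at 0 in both knockdowns. On NM_001265.6 alone, the log2 ratio of shHKDC1 over NTC was 1.37 [0.80 to 1.97], past the 2-fold rule, against 0.82 for the sum. On the same row alone, shRBBP5 over NTC was −0.93 [−1.81 to −0.17], short of the rule, against −1.48 for the sum. The lower call of CDX2 in shRBBP5 thus rests on the sum of both rows, while shHKDC1 over shRBBP5 was 2.30 on either. HMX3 and SIX4 have 1 row each.

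Such shifts between rows were common in this table. Of 669 measured named genes with several rows, 158 (23.6%) had the leading NTC row at 0 in shHKDC1, and 85 (12.7%) had it at 0 in shRBBP5. The leading NTC row of MITF was at 0 in both knockdowns, while that of CDX2 led in every library. How reads were divided among overlapping transcripts was not tested.

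**Figure D4:**
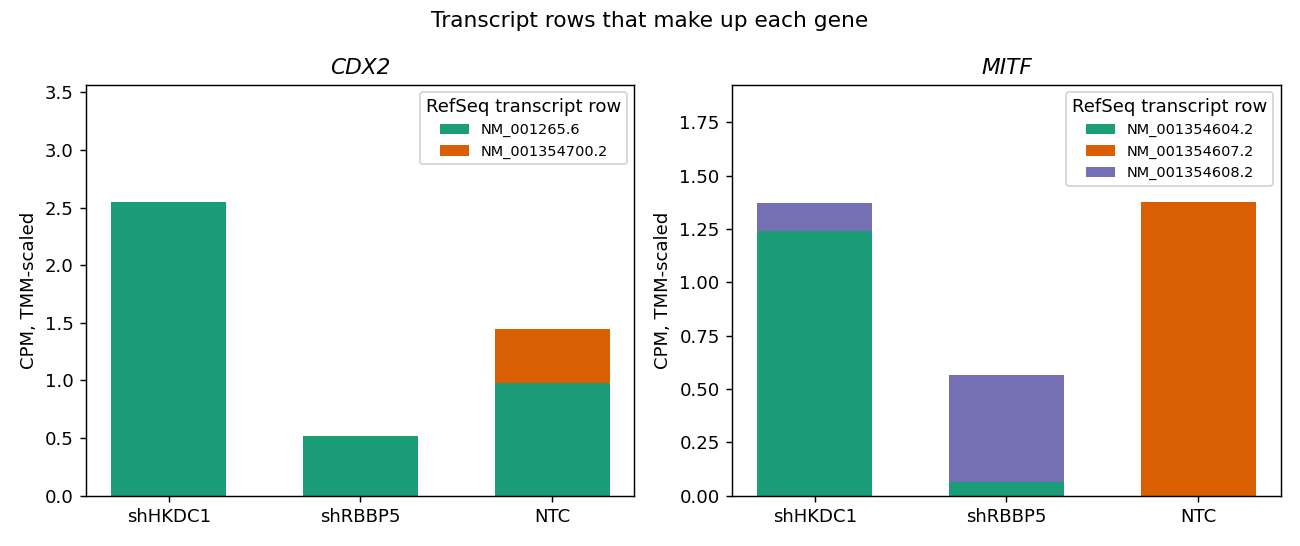
Stacked bars of TMM-scaled CPM per RefSeq transcript row for CDX2 (left) and MITF (right) in each library. MITF units lie on a different leading row in each library, although the summed level is 1.37 CPM in shHKDC1 and 1.38 CPM in NTC.

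Of 12 paralogs of the members, 7 had rows and none reached the mean of 1 CPM. CDX1 and CDX4, the other CDX genes, TFEC of the MITF family and SIX6 were at 0 in all libraries. A count of 0 allows up to 0.116 CPM in shHKDC1, 0.0752 CPM in shRBBP5 and 0.0685 CPM in NTC on a gene's own rows (3 fragments per library). It sets no limit on reads in anonymous loci. SIX2, a kidney progenitor factor, had 0, 7 and 11 units in shHKDC1, shRBBP5 and NTC. TFEB, TFE3, SIX3 and SIX5 were among the paralogs without rows and were not analysed here.

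HMX1, a paralog of HMX3 on another chromosome that acts in eye and ear development, had 1.56 CPM in shHKDC1 (161 units), 0.0188 CPM in shRBBP5 (3 units) and 0.257 CPM in NTC (45 units). Its shHKDC1 level was 6.02-fold that of NTC (log2 2.59 [1.63 to 3.74]). The shRBBP5 level rests on about 1 fragment and lies below the 0.0752 CPM that a count of 0 allows. Its ratio to NTC was log2 −3.57, with a wide counting interval of −8.75 to −0.54. HMX2, the gene next to HMX3 on chromosome 10, had 0.455 CPM in shHKDC1 (47 units), 0.144 CPM in shRBBP5 (23 units) and 0.314 CPM in NTC (55 units). The HMX2 ratio of shHKDC1 over NTC was log2 0.54 [−0.70 to 1.76]. HMX1 and HMX2 had the same order of libraries as HMX3, but the HMX2 intervals over NTC included 0.

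Most genes linked to the members' known tissues had no rows of their own or a mean below 1 CPM. Of 22 intestinal genes linked to CDX2, 13 had complete rows, none was measured and 6 were at 0 in all libraries. The intestinal marker mucin MUC2, chosen after its values were seen, had 0.900 CPM in shHKDC1, 0.125 CPM in shRBBP5 and 0.399 CPM in NTC, on about 23, 5 and 18 fragments. The other intestinal markers had another order. The lectin LGALS4 had 0.155 CPM in shHKDC1, 0.213 CPM in shRBBP5 and 0.280 CPM in NTC, and the keratin KRT20 had 0.261 CPM in shHKDC1, 0.125 CPM in shRBBP5 and 0.297 CPM in NTC. The 3 intestinal markers with rows, of 6 listed, summed to 1.32 CPM in shHKDC1, 0.464 CPM in shRBBP5 and 0.976 CPM in NTC, a sum that follows MUC2 in its order. The melanocyte markers TYR and MLANA were at 0, and DCT, the third with a row of 6 listed, had 2 to 4 fragments per library.

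Of 27 pigment and osteoclast genes linked to MITF, 14 had rows, and the receptor tyrosine kinase gene MET was the only one measured. MET had 4.46 CPM in shHKDC1, 8.01 CPM in shRBBP5 and 6.79 CPM in NTC and was called in no comparison. Of 30 lysosome genes shared by the MITF family, 28 had no rows. FNIP2, a folliculin partner in nutrient signalling, was measured, at 3.46 CPM in shHKDC1, 4.95 CPM in shRBBP5 and 7.89 CPM in NTC, and was called lower for shHKDC1 over NTC (log2 −1.19 [−1.55 to −0.86]). Of 17 partners and targets of the SIX-family, EYA4, a co-activator that binds SIX4 and its relatives, was the only one measured. EYA4 had 1.14 CPM in shHKDC1, 1.07 CPM in shRBBP5 and 1.16 CPM in NTC, close to level. Of 20 otic and hypothalamic genes around HMX3, 11 had complete rows, none was measured and 6 were at 0 throughout. Of 23 liver transcription factors, 3 had complete rows and none was measured.

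The wider set of developmental regulators was set beside the members. Of 193 homeobox genes, 93 had complete rows, and 11 besides CDX2, HMX3 and SIX4 were measured. Of these 11, LHX1, a kidney and head organizer factor, was called lower for shHKDC1 over NTC (log2 −1.05 [−2.02 to −0.24]), and 0 were called higher. Over all measured named genes, 23.1% were called lower there and 8.37% higher. None of the 11 was called for shRBBP5 over NTC, beside 8.67% of all measured named genes called lower and 2.27% higher. TSHZ1 stood at −0.99 [−1.39 to −0.60] in that comparison and MEIS2, a HOX cofactor, at −0.997 [−1.64 to −0.40]. POU6F1 had the highest mean level and ratios of 0.10 and −0.44 for shHKDC1 and shRBBP5 over NTC. ONECUT3 had −0.41 and −0.30, DLX1, a forebrain factor, −0.29 and −0.17, and ZEB2, a repressor of epithelial genes, −0.69 and 0.53. The median ratio of the 11 was −0.01 for shHKDC1 and −0.17 for shRBBP5, beside −0.39 and −0.20 over all measured named genes.

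Of 103 other developmental factors, 10 besides MITF were measured. RUNX1, a blood lineage factor, was called higher in shHKDC1, with 7.53 CPM in shHKDC1, 0.169 CPM in shRBBP5 and 0.622 CPM in NTC. It was called lower in shRBBP5 (log2 −1.86 [−3.26 to −0.58]). FOXQ1, a forkhead factor linked to epithelial plasticity, was called higher in shHKDC1 (log2 3.11 [2.28 to 4.13]), with 2.62 CPM in shHKDC1, 0.201 CPM in shRBBP5 and 0.302 CPM in NTC. Like HMX3, RUNX1 and FOXQ1 reached the mean of 1 CPM through shHKDC1 alone, since they averaged 0.396 and 0.252 CPM over the other libraries. GRHL1, an epithelial factor, was called lower (log2 −1.07 [−1.57 to −0.62]). FOXP2, known for its role in the brain, was called lower in shRBBP5 (log2 −1.36 [−2.02 to −0.75]). The filter also depended on single libraries for genes called lower. FOXP2 averaged 0.899 CPM without NTC, and LHX1 averaged 0.909 CPM without NTC and 0.912 CPM without shRBBP5. FOXP1 had the highest level of the list, at 21.4 CPM in shHKDC1, 14.3 CPM in shRBBP5 and 11.5 CPM in NTC, and was not called. PAX9, a factor of tooth and pharyngeal development, SOX5, which acts in cartilage, and TFAP2C, an epithelial and trophoblast factor, were not called against NTC either. Over both lists without the members, 2 of 21 were higher and 2 lower in shHKDC1, beside 8.37% and 23.1% of all measured named genes. In shRBBP5, 0 were higher and 2 lower, beside 2.27% and 8.67%. With upper quartiles, LHX1 and GRHL1 lost their call in shHKDC1 (2 higher and 0 lower), and MEIS2 and TSHZ1 gained a lower call in shRBBP5 (4 lower).

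In the direct comparison, 4 of those 21 were called higher in shHKDC1 than in shRBBP5 and 4 lower, beside 11.4% and 17.4% of all measured named genes. The higher ones were RUNX1 (log2 5.45), FOXQ1 (3.69), MEIS2 (1.57) and PAX9 (1.04). The lower ones were ZEB2 (−1.22), GRHL1 (−1.05), LHX1 (−1.05) and NKX3-2 (−1.01), a skeletal factor. With upper quartiles the split became 5 higher and 1 lower: TSHZ1 was added to the higher ones, and ZEB2 alone stayed lower, beside 13.6% and 13.9% of named genes.

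**Figure D5:**
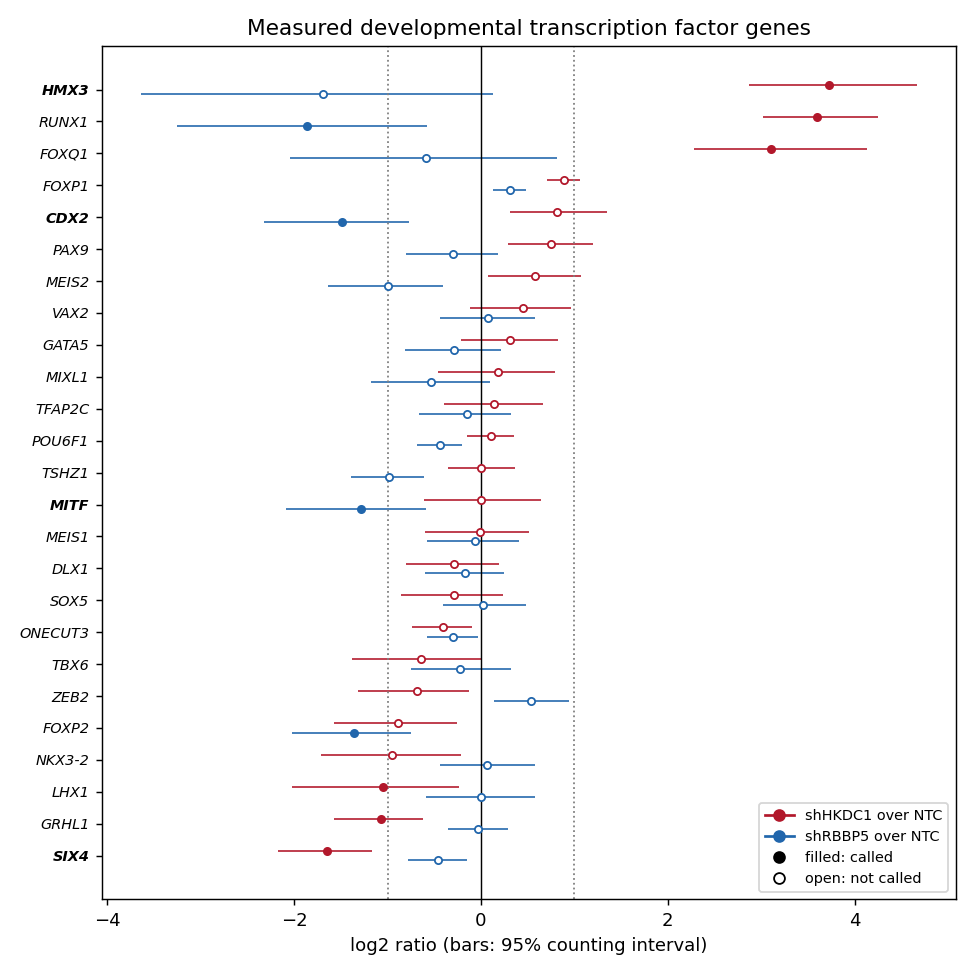
Log2 ratios to NTC of the 25 measured homeobox and other developmental transcription factor genes, sorted by the shHKDC1 ratio, with the members in bold and exact 95% counting intervals as bars. HMX3 at 3.73, RUNX1 at 3.59 and FOXQ1 at 3.11 lie above the rest in shHKDC1, and SIX4 at −1.65 is the lowest. HMX3, RUNX1 and FOXQ1 reached the mean of 1 CPM only through shHKDC1, so their place at the top is partly set by that filter.

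Named genes with the most similar pattern were found by the distance between their pairs of log2 ratios to NTC, over 3 libraries. For HMX3 the nearest of 1014 genes was RUNX1, at a distance of 0.214, and it was the only one within 0.25. SFRP1, a secreted Wnt antagonist, followed at 1.04, KLRG2 at 1.07 and the cytokine LIF at 1.09. HMX3 and RUNX1 passed the filter only through shHKDC1 (0.189 and 0.396 CPM without it), as did SFRP1, KLRG2 and LIF. Their likeness on that axis is thus partly set by the filter. The shRBBP5 ratios rest on about 4 fragments in shRBBP5 for HMX3 [−3.64 to 0.13] and 7 for RUNX1 [−3.26 to −0.58]. Counting error is thus far wider than the distance of 0.214. For CDX2 the nearest were ZNF229 (0.180), ERVMER34-1 (0.252), the sialyltransferase ST3GAL1 (0.257) and the Rab GTPase-activating protein TBC1D4 (0.354). For MITF they were ZNF485 (0.024), TMIE, a component of the hair cell transduction channel (0.111), ZNF615 (0.183) and ZNF300 (0.189). For SIX4 they were SRCIN1 (0.033), LOC100132249 (0.070), ARHGAP11B (0.072) and the nuclear envelope protein SYNE2 (0.098), and 13 genes lay within 0.25. Among genes past the filter of 1 CPM, SIX4 thus had many of like ratios, and HMX3 few.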

How the data were processed

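RNA of PLC cells was extracted with TRIzol, per the labels, and sequenced in 1 library each for shHKDC1, shRBBP5 and NTC. The submitters' processing notes name HISAT2 2.2.1, StringTie 1.3.4, DESeq2 1.28.1 and hg19, with no role for any. The authors deposited estimated counts (expected counts) per assembled locus or RefSeq transcript, unscaled whole numbers, from which the values here start, made with an annotation, strand setting and counting tool not given in the sources used here. Columns labelled NTC, shHD and shRB were taken as NTC, shHKDC1 and shRBBP5.

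RefSeq rows were matched without version to symbols in a GRCh38.p14 annotation (27357 of 27403) and summed per gene. A named gene had all its RefSeq transcripts on rows of their own, and 392 partly named genes were left out. With edgeR 4.0.16 (R 4.3.3), the TMM factors were 0.894 for shHKDC1, 1.03 for shRBBP5 and 1.08 for NTC. Log2 ratios used a pseudocount of 0.5 units, with exact 95% Clopper-Pearson intervals from a conditional binomial on fragments of 4 units. That 1 fragment is worth 4 units is an assumption, made because low values pile up at 4 (525 rows of NTC, against 332 at 3 and 235 at 5). Reads without molecular identifiers are not independent, so intervals and the 3-fragment limit on a count of 0 cover counting error only. With 1 library per group there is no test.

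The members and gene lists were chosen with earlier results of these data known. The genes named were the members, their paralogs, up to 6 list genes with a mean of at least 1 CPM (the highest by mean), and the 4 nearest genes of each member. HMX1 and HMX2 come under the paralogs, while LHX1, MEIS2, NKX3-2, FOXQ1, FOXP2 and markers below 1 CPM were named after their values were seen. The ratio and call steps were run on simulated data, drawn with counting error alone at 4 units per fragment. That run cannot check this assumption or the variation between libraries. Alternatives were other scalings (DESeq2 1.42.0 size factors, upper quartiles, total counts), a pseudocount of 5, 1 unit per fragment, leaving out the 20 most abundant rows, the most abundant row of each gene, other CPM filters and partly named genes added. Python 3.11.15, NumPy 2.4.6, SciPy 1.17.1, pandas 2.3.3 and matplotlib 3.10.9 were used.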

Additional observations from a re-analysis of the deposited data

How the results depend on the processing

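Under total counts, upper quartiles, DESeq2 size factors, a pseudocount of 5, 1 unit per fragment and leaving out the 20 most abundant rows, the 12 member ratios stayed within their counting intervals. The call or lack of one held in all 6 settings for 11 of the 12. The exception was HMX3 for shRBBP5 over NTC, which was called lower with 1 unit per fragment. MITF for shHKDC1 over NTC ranged from −0.28 to 0.08 around 0. Total counts moved the median of all features for shHKDC1 over NTC to −0.31, from −0.03 with TMM. With the most abundant row alone, CDX2 stood at 1.37 for shHKDC1 over NTC, which became a call, and at −0.93 for shRBBP5 over NTC, which ended its call. MITF then stood at −3.57 or below for shHKDC1 and −4.19 or below for shRBBP5, against the limit of 3 fragments, because that row was at 0 there. In the direct comparison that MITF row gave no value.

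With no CPM filter, 1029, 425 and 1051 named genes were called for shHKDC1 over NTC, shRBBP5 over NTC and shHKDC1 over shRBBP5, where the filter left 319, 111 and 293. Without the filter, calls split into 557 higher and 472 lower for shHKDC1 over NTC, 134 and 291 for shRBBP5 over NTC, and 661 and 390 for shHKDC1 over shRBBP5. With a mean of at least 5 CPM, 50, 7 and 35 were called, and no member was tested. Of those 50, 2 were higher and 48 lower. Upper quartiles split the direct calls into 138 higher and 141 lower. No paired analysis was possible because each group has 1 library. With total counts, 4 of the 21 other developmental factors were called lower in shHKDC1 and 4 in shRBBP5 (2 and 2 with TMM), and 3 were higher and 4 lower in the direct comparison. Their recount under other scalings was chosen after seeing the data. DESeq2 size factors changed only the direct split, to 5 and 3. A gene at 0 may have up to 0.116 CPM in shHKDC1, 0.0752 CPM in shRBBP5 and 0.0685 CPM in NTC on its own rows. Reads of that gene in anonymous loci are not covered by this limit.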

Other observations

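Around CDX2 on chromosome 13, its neighbour PDX1, the homeodomain factor of pancreas development, had 22 units in shHKDC1 and 0 in shRBBP5 and NTC. The shHKDC1 level was only 0.213 CPM, and PDX1 did not reach the mean of 1 CPM. LINC00543, the noncoding gene next to CDX2, had 1.30 CPM in shHKDC1, 0.432 CPM in shRBBP5 and 1.15 CPM in NTC, lowest in shRBBP5 as CDX2 was. The kinase receptor gene FLT3, also nearby, was at 0 in all libraries. These neighbours were chosen after their values were seen.

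Among developmental factors with only some of their transcripts on rows of their own, GATA3 and POU3F3 reached a mean of 1 CPM. GATA3, a T-cell and epithelial factor, had 4.59 CPM in shHKDC1, 1.67 CPM in shRBBP5 and 2.71 CPM in NTC. Its log2 ratio for shHKDC1 over shRBBP5 was 1.45 [1.00 to 1.90]. POU3F3, a kidney and neural factor, had 3.89 CPM in shHKDC1, 5.31 CPM in shRBBP5 and 6.49 CPM in NTC. These values hold only the reads on their RefSeq rows.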
